A study of Mus musculus with 27 samples.

Results

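Control mouse ventricles of postnatal day 60 were set against control ventricles of postnatal day 7, to describe what changes in control hearts between the first week after birth and adulthood. The members are the 10 of 27 libraries in the series that the labels give as control (Ctl) at these ages: 7 at day 60 and 3 at day 7. The day 60 libraries pool 2 control sets, because the labels give 4 of them a time after knockout of 7 days and 3 a time of 14 days, although their genotype is Ctl. These times belong to a comparison with MBNL1 knockout mice, and the sources used here do not give what the controls received, their strain, sex, exact alleles or any Cre. The day 7 controls stand beside MBNL1 gain-of-function (Tg) mice in the series and carry no knockout time. MBNL1 is a splicing regulator. The study's stated purpose was to follow normal postnatal expression and the effect of MBNL1 dose on how mature the ventricle becomes. RNA was extracted from ventricle with TRIzol and a column kit and sequenced by BGI on its DNBseq platform. Whether libraries of 1 group stem from different animals is not in the labels, and the p-values therefore rest on the variation among these libraries, part of which may be technical. No batch or date was given, so age and any batch of collection or sequencing cannot be told apart. A further 4 control libraries of day 1 entered no test and are given only where their level helps to place the other ages.

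In the weeks after birth, mouse cardiomyocytes stop dividing, enlarge, and exchange fetal for adult isoforms of contractile, metabolic and ion-handling proteins. The fuel of the heart turns from glucose and lactate towards fatty acids, mitochondria multiply, and the membrane systems that couple excitation to contraction are laid out. Fibroblasts first deposit and then stop renewing much of the collagen and elastic matrix, and resident macrophages and other immune cells settle in the tissue. Mouse ventricle already exchanges its myosin heavy chains around birth.

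Totals were 21929347 to 23030901 counts in the day 60 libraries and 24222016 to 24817135 counts in the day 7 libraries. Levels are CPM, counts scaled to a common library size by TMM, a method that sets the bulk of genes level between libraries, and 3 counts in 1 library stand for 0.153 to 0.173 CPM at day 60 and 0.100 to 0.102 CPM at day 7. The presence of heart muscle was checked with 12 cardiomyocyte markers, all of which were measured. Their summed levels were 76991 to 84330.1 CPM in day 60 ventricles and 51902 to 53377 CPM in day 7 ventricles. This was not a check of ventricle against atrium, and atrial markers are given below. The first principal component of 15523 genes held 81.7% of the variance and separated the ages, with day 60 libraries at 32.6 to 52.7 and day 7 libraries at -106.7 to -104.1. Library 7 of day 60 lay nearest to day 7 on it, at 32.6, while the other 6 lay at 41.7 to 52.7. Xist and Y-linked counts gave 3 female and 4 male libraries at day 60, and 1 female and 2 male libraries at day 7. Day 60 libraries 2, 3 and 7 had 0 to 0.106 CPM of the Y-linked gene Ddx3y, against 52.9 to 62.4 CPM in the others. On the first principal component libraries 2, 3 and 7 lay at 44.0, 41.7 and 32.6, and the others at 44.2 to 52.7. Within day 7, atrial and liver transcripts differed between libraries: Bmp10, a ligand made in atria and early trabeculae, had 0.204, 7.76 and 35.6 CPM, and albumin (Alb), made in liver, had 0.102, 0.234 and 44.7 CPM. Both genes were near 0 at day 60, Bmp10 with 0 to 0.226 CPM (median 0.0529) and Alb with 0 to 0.0529 CPM (median 0), and neither entered the test.

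Of 15523 genes that passed the filter on low counts, 11466 differed between day 60 and day 7 at an adjusted p under 0.05 (edgeR's quasi-likelihood test, Benjamini-Hochberg), which is 73.9% of them. At day 60, 5542 genes were higher (35.7%) and 5924 were lower (38.2%). At least 2-fold changes numbered 2114 higher and 2389 lower, and at least 16-fold changes 167 higher and 147 lower. The 7 day 60 values and the 3 day 7 values of 10230 genes (65.9%) did not overlap, beside the 73.9% of genes called. Lack of overlap in a single gene below is thus what most tested genes show. With most genes called, a count of called members in a gene list says little by itself, and each list below is read against these shares and against the median of all genes, -0.04 on the log2 scale.

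Scaling by total counts moved that median by -0.58, to -0.61. Under total count scaling, 2521 genes (16.2%) were higher and 10386 (66.9%) were lower at day 60, and 19.5% of its calls were thus upward, where TMM had 48.3%. In both scalings the call and direction held for 2521 higher and 5924 lower genes, and 1165 genes were called in opposite directions. The shift accompanies a larger share of counts in few genes. The mitochondrially encoded genes took 26.4% ± 1.38 of counts at day 60 and 15.2% ± 0.360 at day 7 (SD, n = 7 and 3), and the 20 most abundant genes of each library took 36.9% ± 1.37 and 23.7% ± 0.314. Both shares differed (exact permutation test, two-sided, p = 0.00833, the smallest that 7 against 3 samples allow; adjusted over 6 shares p = 0.0125). The 24 adult contractile genes together took 7.94% ± 0.285 of counts at day 60 and 7.67% ± 0.148 at day 7, which did not pass the exact permutation test (adjusted p = 0.167). Fold changes below are log2, day 60 over day 7, with TMM and their standard error (SE). Total counts add about -0.58 to each, so many rises near or under that size change sign or lose their call. Some larger rises lose their call too. All 5924 genes lower with TMM stayed lower, so the second scaling is a check on rises and not on falls. A bulk sample cannot tell fewer cells of a type from less RNA per cell.

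**Figure D1:**
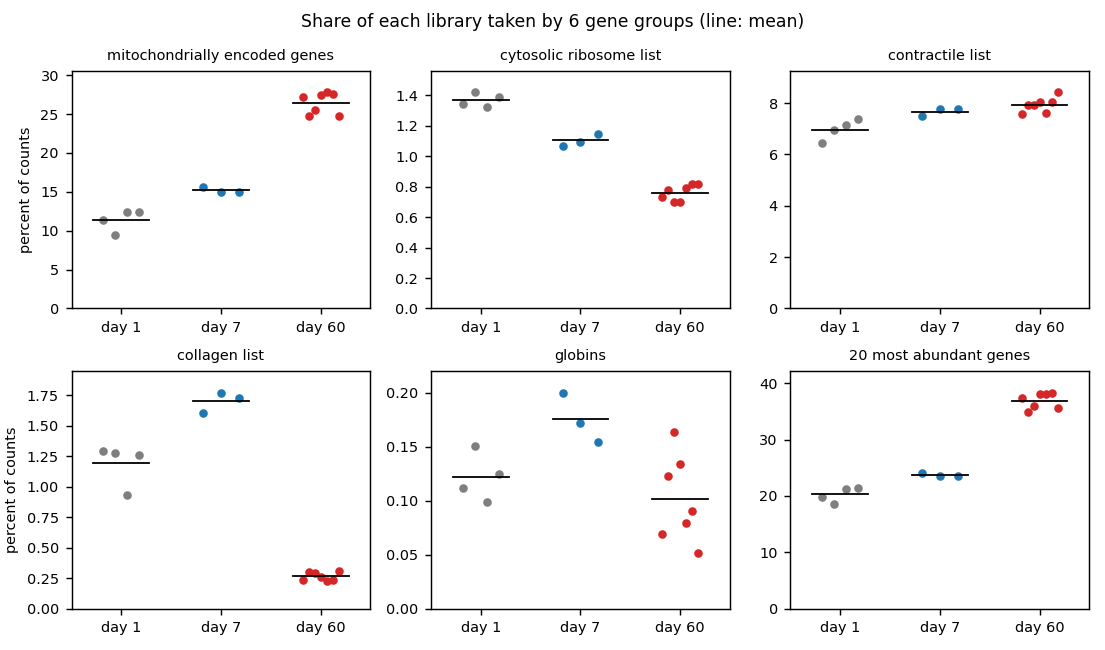
Percent of each control library's counts (vertical axis, from 0) taken by 6 gene groups at day 1, day 7 and day 60; points are libraries and lines are means. The mitochondrially encoded share sits between 24.7% and 27.8% at day 60, above all day 7 libraries, while the cytosolic ribosome and collagen shares sit below them.

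Within the sarcomere, isoforms were exchanged while the share of all counts in the 24 adult contractile genes moved little. Their summed level with TMM was higher, at 94300 to 101593 CPM at day 60, against 63190 to 64419 CPM at day 7. Tnni1, the slow skeletal troponin I that the fetal heart uses as its inhibitory thin-filament subunit, fell to 0.287 to 1.48 CPM (median 0.461) in day 60 ventricles, against 859, 827 and 724 CPM in day 7 ventricles. Its log2 fold change of -10.37 ± 0.19 (edgeR adjusted p = 7.60e-14) was the deepest among the named genes, and the groups were far apart even though library 7 held about 3 times the median of its group. Tnni1 lies at chr1:135779434-135810989 on GRCm38. Tnni3, the adult cardiac troponin I, had 3889 to 4889 CPM (median 4414) at day 60, against 1636, 1741 and 1784 CPM at day 7, a rise of 1.37 ± 0.07 (adjusted p = 5.58e-10). Within a library the log2 count ratio of Tnni3 over Tnni1, which no scaling touches, was 12.91 ± 0.68 at day 60 and 1.10 ± 0.19 at day 7 (exact permutation p = 0.00833). At day 1 that ratio was -0.30 ± 0.25, so the smaller part of the exchange lay between day 1 and day 7 and the larger part between day 7 and day 60. Count ratios are not corrected for gene length, so their change between ages is read here and not their level.

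Among 24 adult contractile genes, 23 rose and 0 fell (11 higher and 5 lower with total counts), with a median of 0.68 (0.10 with total counts). The largest rises were in genes of the Z-disc and the thin filament ends. Tcap, the telethonin that anchors titin, rose by 2.84 ± 0.21 to 819 to 1558 CPM (median 1309.8) at day 60, against 175, 189 and 171 CPM at day 7. Lmod2, the leiomodin that elongates thin filaments, rose by 2.67 ± 0.10, Cmya5 (myospryn) by 2.34 ± 0.08, Myoz2 (calsarcin) by 1.64 ± 0.08 and Mylk3, the kinase of the ventricular light chain, by 1.14 ± 0.07. The day 60 and day 7 values of Tcap, Lmod2 and Cmya5 did not overlap, and all 3 kept their rise with total counts, at 2.26, 2.09 and 1.76. The bulk filament genes moved less: Myh6, the fast alpha myosin heavy chain, changed by 0.60 ± 0.08 and Ttn (titin) by 0.66 ± 0.10, and with total counts Myh6 was at 0.01 with no call. Myl2, Myl3 and Actc1, the ventricular light chains and cardiac actin, were higher with TMM at 0.58, 0.54 and 0.32, and of opposite sign with total counts at -0.0024, -0.04 and -0.26.

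Of 26 fetal contractile and stress genes, 25 were tested: 14 fell and 5 rose (5 higher and 18 lower with total counts), with a median of -0.97 (-1.55 with total counts). Myl9, a nonmuscle and smooth muscle light chain, fell by 2.58 ± 0.11 to 32.0 to 45.5 CPM (median 38.9) at day 60, against 214, 206 and 262 CPM at day 7. Acta2, the smooth muscle actin that early cardiomyocytes also use, fell to 180.3 to 372 CPM (median 210.3), against 1018, 733 and 851 CPM (-1.88 ± 0.17). The atrial light chains Myl7 (-2.26 ± 0.43) and Myl4 (-1.49 ± 0.41) also fell. For Myl7 the day 7 libraries read 29.2, 136 and 134 CPM, and the first of them, which also had the least Bmp10, came within the day 60 range of 7.00 to 32.9 CPM. The 5 genes of the list that rose were Xirp2, an actin-binding repeat protein of the Z-disc and intercalated disc (2.50 ± 0.14), Acta1, the skeletal actin (1.90 ± 0.29), Myl1, a fast skeletal light chain (1.71 ± 0.18), Nppb, the brain natriuretic peptide precursor (1.30 ± 0.28), and Nrap, an anchoring protein of growing myofibrils (0.94 ± 0.08). Acta1 reached 385 to 966 CPM (median 521) at day 60, against 216, 133 and 145 CPM at day 7, and its groups did not overlap.

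Myh7, the slow beta myosin heavy chain, was not called, with 212 to 607 CPM (median 304) at day 60, against 250.4, 307 and 212 CPM at day 7 (0.54 ± 0.25, edgeR adjusted p = 0.0657). Across the 3 ages it averaged 5752 ± 2421 CPM at day 1, 256 ± 47.5 CPM at day 7 and 368 ± 135 CPM at day 60 (SD, n = 4, 3 and 7). The log2 ratio of Myh6 over Myh7 was 6.19 ± 0.47 at day 60 and 6.07 ± 0.20 at day 7 (exact permutation p = 0.700), while at day 1 it was 1.05 ± 1.02. Nppa, the atrial natriuretic peptide, was likewise not called (0.05 ± 0.28 with TMM, -0.53 with total counts), with 60.3 to 106 CPM (median 90.0) at day 60 and 37.8, 72.8 and 144 CPM at day 7. Its sign also turned without day 7 library 1, without day 7 library 2 and without the 14-day set (-0.30, -0.05 and -0.02). It was called without day 7 library 3, at 0.67. At day 1 Nppa had 221 to 284 CPM. Another gene lies opposite 61.5% of its exonic bases, and these counts could not be told apart by strand.

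Of 23 pairs of related genes, 19 had a higher late-over-early ratio at day 60, 2 had a lower one and 2 did not pass (exact permutation tests, adjusted over 23 pairs). Rpl3l, the striated muscle form of ribosomal protein L3, had 199 to 270.0 CPM (median 221) at day 60, against 11.9, 10.7 and 12.2 CPM at day 7. Rpl3 itself had 77.8 to 124 CPM (median 106) at day 60, against 193, 246 and 255 CPM at day 7, and the ratio of the pair differed by 5.51. Myh14 rose against Myh10, both nonmuscle myosin II heavy chains, by 4.81. The muscle forms of cytochrome oxidase subunits gained on the general forms by 2.39 for subunit 6A, 2.10 for subunit 8 and 1.94 for subunit 7A. Among enzymes, Hk2 gained on Hk1 (hexokinase) by 1.78, Ckm on Ckb (creatine kinase) by 1.76, Eno3 on Eno1 (enolase) by 1.36, Slc25a4 on Slc25a5 (adenine nucleotide translocator) by 1.38 and Ldhb on Ldha (lactate dehydrogenase) by 0.94. Each of these had groups that did not overlap (exact permutation p = 0.00833). The 2 lower ratios were Actc1 over Acta1, with a difference of -1.53, and Kcnd2 over Kcnd3, both pores of the transient outward current, with -1.72. Cpt1b over Cpt1a did not pass (difference 0.49, exact permutation p = 0.0917). However, 81.4% of the exonic bases of Cpt1b are shared with an annotated neighbour on the same strand, and its level of 2.65 to 5.47 CPM (median 3.97) at day 60 is uncertain for that reason.

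**Figure D2:**
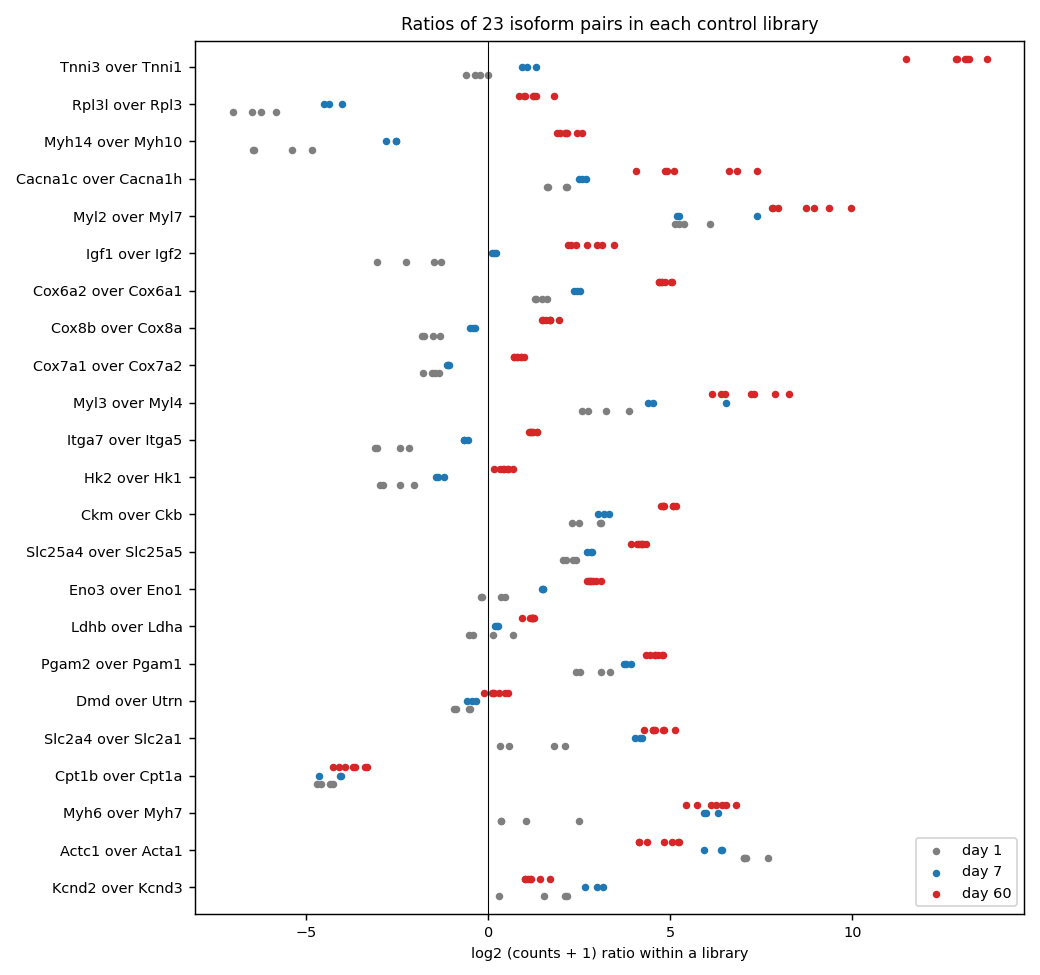
Log2 ratio of counts plus 1 within each control library (horizontal axis) for 23 pairs, late member over early member, with libraries of day 1, day 7 and day 60 in 3 colours. Tnni3 over Tnni1 stands at 11.5 to 13.7 at day 60, apart from all earlier libraries, while Myh6 over Myh7 overlaps between day 7 and day 60 and is lower at day 1.

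**Figure D3:**
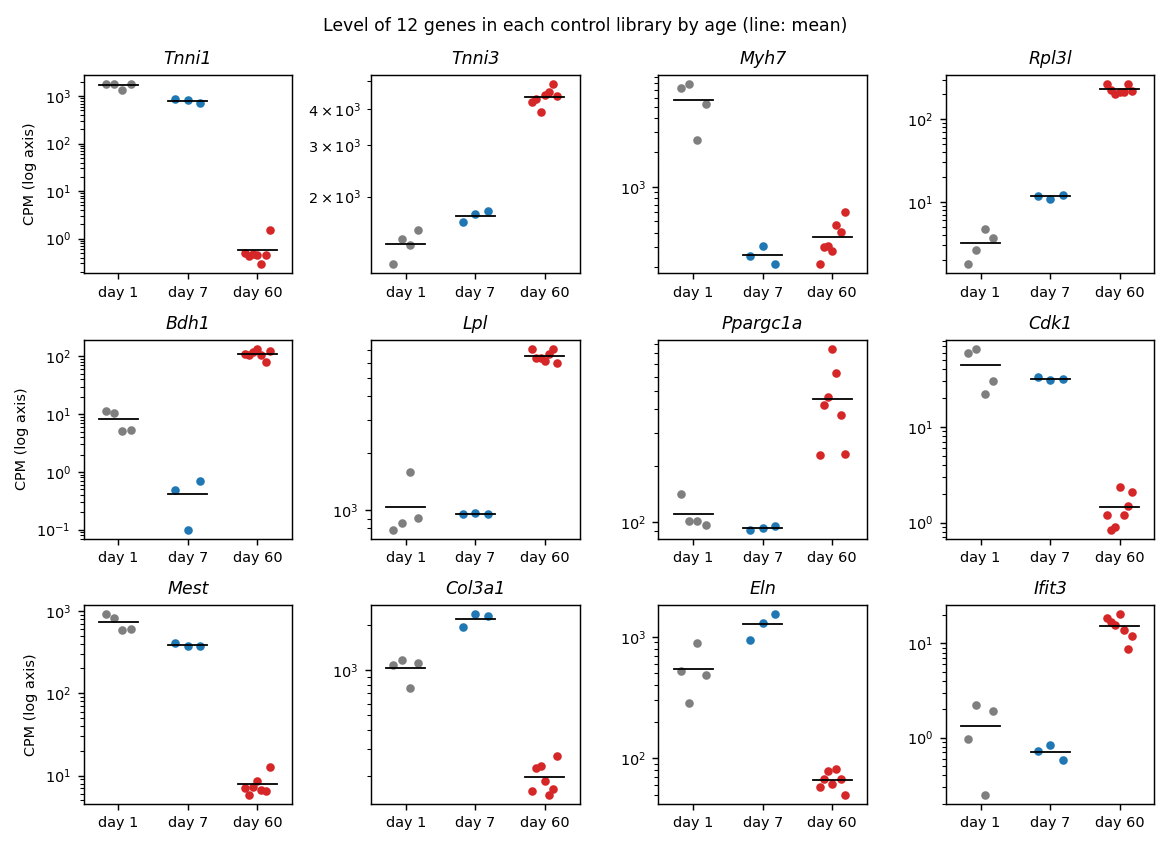
CPM on log axes of 12 genes in each control library at day 1, day 7 and day 60 (points) with the mean (line). Tnni1, Cdk1, Mest, Col3a1 and Eln are low at day 60, Rpl3l, Bdh1, Lpl, Ppargc1a and Ifit3 are high there, and Myh7 separates day 1 from both later ages.

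Genes of excitation and calcium handling changed in both directions. Of 34 ion channel and pump genes tested, 20 rose and 6 fell (16 higher and 15 lower with total counts), with a median of 0.61 (0.03 with total counts). Kcnv2, a silent potassium channel subunit that modifies Kv2 pores, had 14.1 to 16.8 CPM (median 15.8) at day 60, against 0.0681, 0.234 and 0.0681 CPM at day 7, from 11 counts in all at the younger age (6.92 ± 0.21). Scn4b, a beta subunit of the sodium channel, had 35.8 to 66.7 CPM (median 44.0), against 0.681, 0.435 and 0.307 CPM (6.68 ± 0.32). The groups of both genes were far apart. Kcnd3 and Kcnd2, pores of the fast transient outward current that shortens the adult mouse action potential, rose by 3.95 ± 0.13 and 2.19 ± 0.11, and their partner Kcnip2 by 1.61 ± 0.08. Cacna1s, the L-type pore of skeletal muscle, rose by 3.73 ± 0.20 and Kcnk3, a leak channel, by 1.33 ± 0.06.

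The 6 channel genes that fell included both T-type calcium pores, which carry pacemaking and immature currents. Kcne1, the small subunit of the slow delayed rectifier, fell to 3.57 to 20.8 CPM (median 6.27) at day 60, against 268, 265 and 254 CPM at day 7 (-4.54 ± 0.37, edgeR adjusted p = 5.22e-08). Cacna1h and Cacna1g, the T-type calcium channel pores, fell by 2.56 ± 0.42 and 1.92 ± 0.14. Cacna1h spread widely at day 60, at 2.03 to 17.7 CPM (median 9.63), yet stayed under the day 7 values of 48.5, 49.1 and 46.7 CPM. The L-type pore Cacna1c was not called (0.14 ± 0.08), with 315 ± 29.5 CPM at day 60 and 289.8 ± 27.1 CPM at day 7 (SD, n = 7 and 3).

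Of 28 genes of calcium cycling and the dyad, where the sarcoplasmic reticulum meets the cell membrane, 13 rose and 8 fell (8 higher and 17 lower with total counts), and the median of 0.14 turned to -0.44 with total counts. The rises included the pump that refills the reticulum and its buffers. Atp2a2, the SERCA2 pump, had 14409 to 16524 CPM (median 15775) at day 60, against 7026, 6248 and 6086 CPM at day 7 (1.30 ± 0.07), and Pln (phospholamban), its inhibitor, rose by 1.14 ± 0.06. Hrc, the histidine-rich calcium-binding protein of the reticulum, rose by 2.21 ± 0.07 and S100a1 by 1.92 ± 0.12, and their groups did not overlap. The release channel Ryr2 rose by 0.93 ± 0.09 and Jph2, the junctophilin that holds the dyad together, by 0.63 ± 0.06. Slc8a1, the sodium-calcium exchanger, fell by 0.35 ± 0.08, with 294 ± 33.2 CPM at day 60 and 380.5 ± 7.91 CPM at day 7, and Bin1, an organiser of transverse tubules, and Fkbp1b, a partner of the release channel, fell by 1.20 ± 0.11 and 1.53 ± 0.20. At Pln, 64.7% of exonic bases lie opposite another annotated gene, so without a stated strand setting its reads cannot be told apart from that gene's.

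Genes of the intercalated disc moved in both directions. Of 17 genes 5 rose and 6 fell (3 higher and 13 lower with total counts). The rises included Des (desmin, 1.23 ± 0.07), Dsp (desmoplakin, 1.05 ± 0.07) and Tmem65, a disc membrane protein (0.97 ± 0.08), all called in both scalings. Gja1, the main ventricular connexin, had 172 to 262 CPM (median 203) at day 60, against 492, 467 and 437 CPM at day 7 (-1.14 ± 0.11). The other connexins Gja5 (-1.30 ± 0.12) and Gjc1 (-1.60 ± 0.10) fell as well, and the other 3 falls were smaller.

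Mitochondrial transcripts rose from both genomes. Of 13 protein-coding genes of the mitochondrial genome, 11 rose and 0 fell, with a median of 1.40, and 11 rose in both scalings. mt-Co1, the catalytic subunit of cytochrome oxidase, had 111255 to 153289 CPM (median 133593) at day 60, against 52088, 49751 and 49693 CPM at day 7 (1.40 ± 0.11). mt-Nd2, a complex I subunit, rose by 1.75 ± 0.08, mt-Nd4 by 1.49 ± 0.08 and the large ribosomal RNA mt-Rnr2 by 2.69 ± 0.14, at 10734 to 16423 CPM (median 14777) at day 60, against 2083, 2457 and 2095 CPM at day 7. The 6 members mt-Co2, mt-Co3, mt-Atp6, mt-Atp8, mt-Nd3 and mt-Nd4l averaged 258 CPM per kilobase or less at day 60, beside 85166 CPM per kilobase for mt-Co1. The nuclear genome holds near-identical copies of mitochondrial sequence, so their values are uncertain. Among them mt-Co2, with 29.4, 629.9 and 26.7 CPM at day 7, and mt-Atp8 were not called. The other 7 protein-coding members all rose, by 1.01 (mt-Nd6) to 1.75 (mt-Nd2).

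All 37 nuclear genes of complex I rose at day 60, from 0.25 for Ndufc2 to 1.33 for Ndufs7 and with a median of 0.89. With total counts 31 of the 37 rose and 1 fell, at a median of 0.31. In complexes III to V and cytochrome c, 32 of 34 rose and 2 fell (18 higher and 5 lower with total counts), and those that fell with TMM were Cox6a1 (-0.86 ± 0.06) and Cox8a (-0.55 ± 0.06), the general forms of subunits whose muscle forms rose. Cox7a1 rose by 2.37 ± 0.09, Cox8b by 1.56 ± 0.12 and Cox6a2 by 1.53 ± 0.08. Cox7a1 had 452 to 569 CPM (median 459) at day 60, against 102, 92.5 and 94.5 CPM at day 7, and its groups did not overlap. Of 36 mitochondrial ribosome genes, 34 rose with TMM and 15 with total counts, where 6 fell.

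Of 24 regulators of mitochondrial genes and dynamics, 20 rose and 4 fell (13 higher and 7 lower with total counts). Klf15, a Krüppel-like factor that directs amino acid and lipid use, rose most, to 139 to 191 CPM (median 154) at day 60, against 13.0, 13.4 and 9.71 CPM at day 7 (3.77 ± 0.14, edgeR adjusted p = 1.51e-11). Ppargc1a, the coactivator that drives mitochondrial gene expression, had 228 to 845 CPM (median 425), against 91.2, 93.2 and 95.1 CPM (2.31 ± 0.36). Its day 60 libraries spread more than 3-fold, but the lowest was above all day 7 libraries. The nuclear receptors Esrrb (2.18 ± 0.07), Rxrg (2.12 ± 0.08), Ppara (1.39 ± 0.14) and Esrrg (0.90 ± 0.08) rose, as did Perm1, a muscle regulator of the same programme (1.38 ± 0.09), and Mfn1, a fusion protein of the outer membrane (1.26 ± 0.06). Those that fell were Ucp2 (-0.98 ± 0.18), Ppargc1b (-0.83 ± 0.12), Nrf1 (-0.52 ± 0.07) and Gabpa (-0.21 ± 0.05). Tfam, which packages and transcribes mitochondrial DNA, moved by 0.25 ± 0.06 and was at -0.33 with total counts.

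With TMM most fuel genes rose, and fewer did with total counts. In fatty acid uptake and oxidation, 27 of 35 genes rose and 4 fell, at a median of 0.73. The split was 18 higher and 13 lower with total counts, at a median of 0.14. Lpl, the lipase that frees fatty acids from circulating lipoproteins, had 5997 to 7109 CPM (median 6381) at day 60, against 946, 966 and 957 CPM at day 7 (2.79 ± 0.08, edgeR adjusted p = 1.79e-12). Pnpla2, the triglyceride lipase inside the cell, rose by 1.79 ± 0.13, Pdk4, the kinase that closes the pyruvate dehydrogenase gate, by 1.59 ± 0.40, and Cd36, the fatty acid carrier, by 1.17 ± 0.10. Of the spiral itself, Echs1 (1.37 ± 0.07), Hadhb (1.26 ± 0.10) and Acadm (1.18 ± 0.07) rose more than Acadl (0.25 ± 0.06) and Hadha (0.40 ± 0.07), which were lower with total counts (-0.33 and -0.18). Acot1, an acyl-CoA thioesterase, and Cpt1a, the liver form of the carnitine shuttle entry enzyme, fell by 1.86 ± 0.23 and 1.13 ± 0.10. All 24 citric acid cycle and pyruvate entry genes rose, led by Mpc1, a subunit of the mitochondrial pyruvate carrier (1.76 ± 0.09), and by Suclg2 (1.29 ± 0.07), and 19 of them rose with total counts.

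Genes that burn ketone bodies and branched-chain amino acids had the highest median of the metabolic lists, 1.87 (1.29 with total counts), with 18 of 19 higher and 1 lower. Bdh1, the 3-hydroxybutyrate dehydrogenase that begins ketone oxidation, at chr16:31422280-31458901 on GRCm38, had 81.1 to 136 CPM (median 111) at day 60, against 0.476, 0.100 and 0.681 CPM at day 7 (8.05 ± 0.28, edgeR adjusted p = 1.02e-11). Across the 3 ages Bdh1 averaged 8.11 ± 3.35 CPM at day 1, 0.419 ± 0.295 CPM at day 7 and 111 ± 17.2 CPM at day 60, so day 7 was its lowest point. Oxct1, which activates acetoacetate in the next step, rose by 2.50 ± 0.09. On the branched-chain side Ppm1k, the phosphatase that activates the dehydrogenase complex, rose by 2.39 ± 0.10, Bckdha by 2.38 ± 0.13, Mccc1 by 2.30 ± 0.07 and Ivd by 2.27 ± 0.08. Another gene lies opposite 61.7% of the exonic bases of Bckdha, so its value is uncertain.

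Genes of glucose use mostly rose as well: 25 of 31 genes of glycolysis, glucose entry and glycogen rose and 4 fell, with 18 higher and 10 lower under total counts. Slc2a4, the insulin-regulated glucose transporter, rose by 2.0 ± 0.06, Pfkfb1 and Pfkfb2, which set the level of the activator fructose 2,6-bisphosphate, by 2.98 ± 0.29 and 1.74 ± 0.20, and Pygm, the muscle glycogen phosphorylase, by 1.51 ± 0.06. The members that fell were Aldoc (-3.62 ± 0.33), Slc16a3, the lactate exporter (-0.96 ± 0.12), Eno1 (-0.68 ± 0.06) and Pfkp (-0.60 ± 0.12). Slc16a3 averaged 68.7 ± 57.5 CPM at day 1, 7.33 ± 0.212 CPM at day 7 and 3.72 ± 0.582 CPM at day 60, and Aldoc averaged 20.2 ± 4.12 CPM at day 1, 3.10 ± 0.715 CPM at day 7 and 0.245 ± 0.138 CPM at day 60, so both were higher still at day 1. In energy storage, Ckmt2, the mitochondrial creatine kinase, had 2152 to 2714 CPM (median 2399.6) at day 60, against 479, 410.0 and 457 CPM at day 7 (2.44 ± 0.08), and Mb (myoglobin), which stores oxygen, rose by 1.61 ± 0.07. Another gene lies opposite 31.9% of the exonic bases of Mb. Of 12 creatine, energy transfer and oxygen storage genes 8 rose and 4 fell (7 higher and 4 lower with total counts). The creatine synthesis enzymes Gatm and Gamt fell by 0.77 ± 0.11 and 0.64 ± 0.11. Of 19 antioxidant genes 16 rose (14 higher and 2 lower with total counts), with Gsta3 (5.45 ± 0.29), Gstm1 (3.37 ± 0.10) and Mgst1 (3.16 ± 0.20), all glutathione transferases, ahead of Sod3 (1.75 ± 0.09) and Gpx4 (1.55 ± 0.07). Gstm1 stood at 299 to 404 CPM (median 353) at day 60, against 35.3, 34.3 and 35.1 CPM at day 7.

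**Figure D4:**
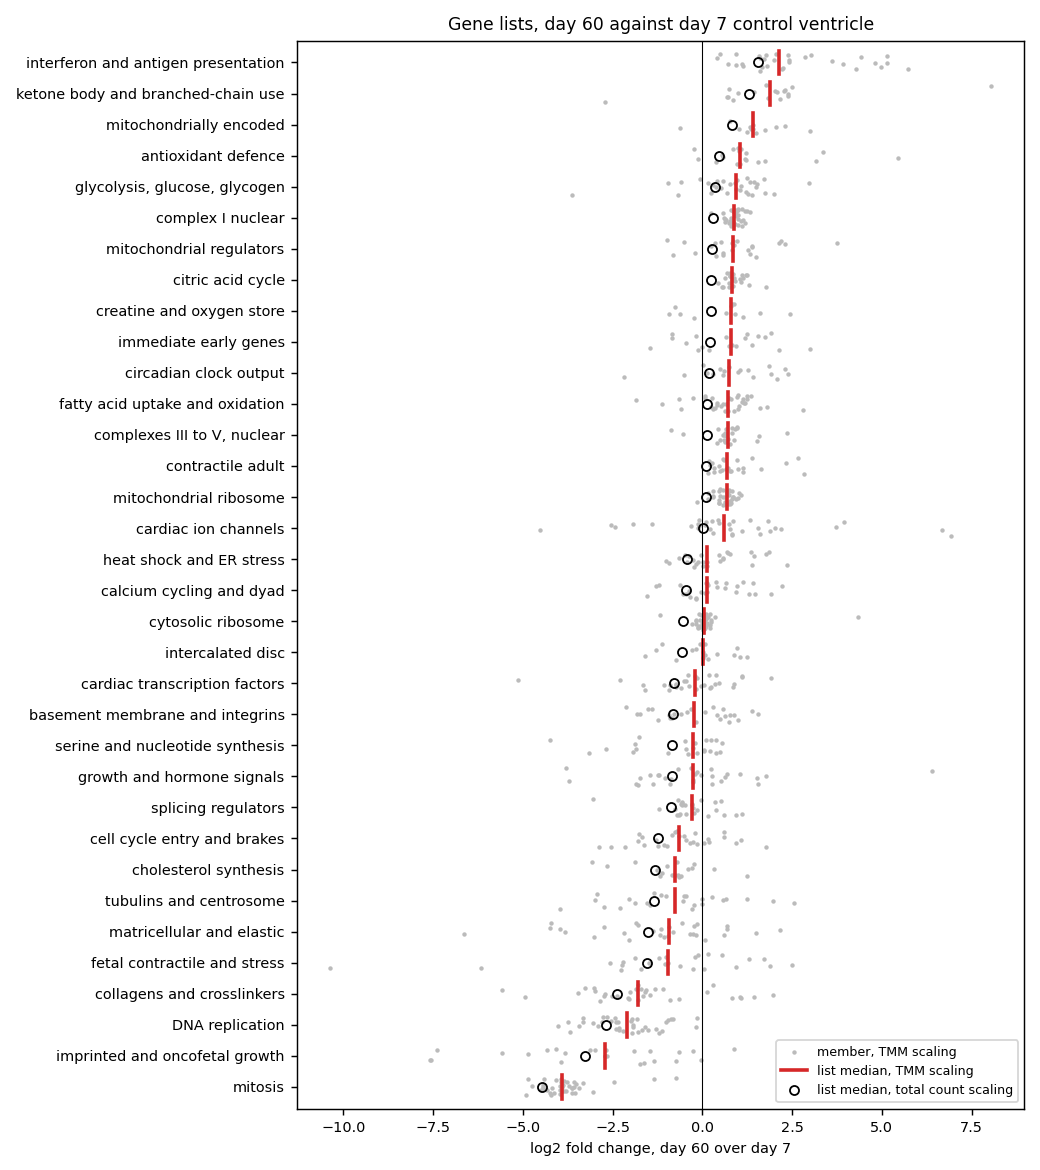
Log2 fold change, day 60 over day 7 (horizontal axis), of every tested member of 34 gene lists (grey points), with list medians under TMM (red bars) and under total count scaling (open circles). Medians run from -3.90 for mitosis to 2.14 for interferon and antigen presentation; those of calcium cycling, intercalated disc, cytosolic ribosome and heat shock genes are above 0 under TMM and below 0 under total counts.

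Cell division genes fell together. All 41 mitosis genes were lower at day 60, with a median of -3.90 beside -0.04 for all genes. They were also lower with total counts, as were all genes called lower with TMM. All 41 remained lower whichever of the 10 libraries was left out. Cdk1, the kinase that starts mitosis, had 0.846 to 2.37 CPM (median 1.21) at day 60, against 33.2, 31.0 and 31.6 CPM at day 7 (-4.44 ± 0.18, edgeR adjusted p = 4.02e-11). Hmmr, a spindle protein, fell by 4.92 ± 0.20, Ccnb1 (cyclin B1), the partner of Cdk1, fell by 4.86 ± 0.16, Cdca3, which helps degrade the Cdk1 inhibitor Wee1, fell by 4.75 ± 0.15, and Cdca8, a subunit of the chromosomal passenger complex, fell by 4.48 ± 0.17. Mki67, the proliferation antigen, had 5.29 to 14.1 CPM (median 7.51), against 94.1, 103 and 106 CPM. No day 60 library reached a day 7 level for Cdk1 or Mki67. The summed level of the 41 genes was 93.9 to 158 CPM in day 60 ventricles and 1157 to 1233 CPM in day 7 ventricles. The smallest falls were those of Cenpf (-0.72 ± 0.12) and Cenpa (-1.35 ± 0.06), the centromeric histone. The cell type that divides was not resolved in these bulk samples.

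Of 38 DNA replication genes 36 fell and 0 rose (0 higher and 38 lower with total counts), with a median of -2.10. E2f1, the transcription factor of S-phase entry, fell by 3.45 ± 0.19 and Uhrf1, which carries DNA methylation through replication, by 3.32 ± 0.09. E2f1 had 1.55 to 4.23 CPM (median 2.12) at day 60, against 26.2, 28.5 and 28.3 CPM at day 7. Pcna, the sliding clamp that also serves repair, fell by 0.95 ± 0.06. Rpa2 and Gins4 were not called. Nucleotide supply followed in part. Rrm2, the cell-cycle-bound subunit of ribonucleotide reductase, fell by 4.25 ± 0.12. Tk1 and Tyms, which make thymidine nucleotides, fell by 2.68 ± 0.12 and 3.17 ± 0.16. Of 23 serine and nucleotide synthesis genes 13 fell and 6 rose with TMM (median -0.26), and 21 fell and 0 rose with total counts.

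Promoters of the mitosis genes are shown because these genes moved together and share short elements that are well known in cell cycle promoters. RefSeq windows on GRCm38.p6, from 250 bases before to 50 bases after a gene's start, were matched for 35 of the 41 genes. The CHR element, searched as TTTGAA on both strands, was in 27 of the 35 windows (77.1%), against 11.9% of the windows of 11238 tested genes and 18.1% of all 27025 windows. The letters CCAAT, also on both strands, were in 27 of them (77.1%), against 38.2% of tested genes, and 23 windows (65.7%) held both, against 4.96%. CCAAT was also in 21 of 31 windows of DNA replication genes (67.7%) and 12 of 24 windows of interferon and antigen presentation genes (50%). Of the replication windows 6 (19.4%) held CHR and 5 (16.1%) held both. Of 31 windows of DNA replication genes, 13 (41.9%) held TTCCCGC, an E2F-type element, against 8.37% of tested genes, and 0 of the mitosis windows held it. The windows of Cdk1 at chr10:69352863-69353162 (minus strand), Plk1 at chr7:122159185-122159484 (plus strand) and Ccnb2 at chr9:70421505-70421804 (minus strand) are printed 5′ to 3′ on the strand of the gene, with matches to either element or its reverse complement in capitals. A match is a run of letters and not a measured site.
Cdk1: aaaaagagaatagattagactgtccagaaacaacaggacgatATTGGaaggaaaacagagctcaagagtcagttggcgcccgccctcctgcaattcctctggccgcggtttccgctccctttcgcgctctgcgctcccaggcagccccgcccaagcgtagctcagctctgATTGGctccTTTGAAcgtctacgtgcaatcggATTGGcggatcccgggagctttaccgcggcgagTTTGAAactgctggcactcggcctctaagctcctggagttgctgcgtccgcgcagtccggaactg
Plk1: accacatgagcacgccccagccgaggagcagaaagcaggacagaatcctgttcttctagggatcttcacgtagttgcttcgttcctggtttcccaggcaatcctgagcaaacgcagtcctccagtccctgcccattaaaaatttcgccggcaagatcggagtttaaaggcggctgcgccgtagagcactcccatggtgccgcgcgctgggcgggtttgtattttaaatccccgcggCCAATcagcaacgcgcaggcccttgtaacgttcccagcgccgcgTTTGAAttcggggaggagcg
Ccnb2: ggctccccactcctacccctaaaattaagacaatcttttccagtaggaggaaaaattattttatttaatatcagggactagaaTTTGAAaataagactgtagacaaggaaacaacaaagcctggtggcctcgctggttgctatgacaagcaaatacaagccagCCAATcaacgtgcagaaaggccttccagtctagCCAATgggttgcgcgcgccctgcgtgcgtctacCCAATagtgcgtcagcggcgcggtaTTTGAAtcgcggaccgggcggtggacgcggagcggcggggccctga
In these 3 genes the level fell by 4.44 ± 0.18 (Cdk1), 4.32 ± 0.16 (Plk1, polo-like kinase) and 4.14 ± 0.16 (Ccnb2, cyclin B2) on the log2 scale.

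Entry and exit regulators moved less than the mitotic machinery. Of 29 genes tested, 20 fell and 5 rose (2 higher and 24 lower with total counts; TMM median -0.65). Ccng1, a cyclin induced by p53, rose to 847 to 1142 CPM (median 992) at day 60, against 274, 283 and 304 CPM at day 7 (1.78 ± 0.09). Cdkn1a, the p21 inhibitor, rose by 0.94 ± 0.32 with TMM but was not called with total counts (0.35), and its day 60 values of 44.3 to 196 CPM (median 119) surround the day 7 values of 58.5, 62.0 and 58.6 CPM. Rbl2, a pocket protein of resting cells, rose by 1.09 ± 0.08 and its counterpart of cycling cells, Rbl1, fell by 2.55 ± 0.10. Meis1, a homeobox factor that restrains cardiomyocyte division in mice, fell by 0.98 ± 0.10, with 17.7 ± 2.47 CPM at day 60 and 35.4 ± 1.78 CPM at day 7. Mycn, Cdk6 and Cdk4 fell by 2.88 ± 0.19, 1.69 ± 0.10 and 1.23 ± 0.07, while the D-type cyclins fell by 0.76 ± 0.08 (Ccnd2), 0.71 ± 0.08 (Ccnd3) and 0.50 ± 0.09 (Ccnd1).

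Of 26 microtubule and centrosome genes 17 fell and 6 rose (3 higher and 21 lower with total counts). Tubb5, Tuba1a and Tubb2b, tubulins of growing cells, fell by 1.88 ± 0.06, 1.55 ± 0.10 and 2.73 ± 0.14, and Stmn1, which takes microtubules apart, fell by 2.92 ± 0.12. Tuba8 and Tuba4a, tubulins of striated muscle among other tissues, rose by 2.55 ± 0.17 and 1.96 ± 0.21, with another gene opposite 37.3% of the exonic bases of Tuba4a. Tuba8 averaged 3.66 ± 0.803 CPM at day 1, 37.9 ± 4.71 CPM at day 7 and 218 ± 42.6 CPM at day 60. Reads of near-identical tubulins can be split between genes, so single values are uncertain.

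Imprinted and oncofetal growth genes had the second lowest median of the lists. Of 28 listed, 25 were tested: 22 fell and 1 rose (0 higher and 24 lower with total counts), with a median of -2.70. Dlk1, a paternally expressed Notch-like ligand, had 0.0566 to 0.460 CPM (median 0.159) at day 60, against 46.6, 45.1 and 40.9 CPM at day 7 (-7.60 ± 0.18). Mest had 5.87 to 12.6 CPM (median 7.07), against 408, 369.7 and 376 CPM (-5.59 ± 0.15, edgeR adjusted p = 1.74e-12), and the long noncoding RNA H19 had 15.0 to 30.3 CPM (median 25.0), against 719.7, 692 and 761 CPM (-4.85 ± 0.14). Groups of all 3 were far apart. Igf2, the fetal growth factor beside H19, fell by 4.32 ± 0.18, although 64.5% of its exonic bases are shared with another annotated gene on the same strand and its level is uncertain. Across the 3 ages H19 averaged 2627 ± 401 CPM at day 1, 724 ± 34.7 CPM at day 7 and 24.8 ± 5.10 CPM at day 60 and Plagl1, a zinc finger that acts on many imprinted genes, 329.7 ± 31.3 CPM at day 1, 127 ± 6.01 CPM at day 7 and 8.18 ± 1.38 CPM at day 60. Meg3, Rian and Mirg, maternally expressed RNAs of 1 cluster, fell by 2.99 ± 0.11, 2.66 ± 0.10 and 2.72 ± 0.26. Peg3 fell by 3.12 ± 0.13, Grb10 by 1.45 ± 0.08 and Igf2r, which clears IGF2, by 0.72 ± 0.07. Hmga2, a chromatin protein of embryonic cells, had 0 counts over the 7 day 60 libraries and 86 counts over the 3 day 7 libraries, so it was at least 41.2-fold lower at day 60, with a floor of 3 counts over the group. Impact was the member that rose (0.88 ± 0.20), without a call under total counts.

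Growth factor and hormone signals were mixed, with 9 of 30 higher and 16 lower (5 higher and 21 lower with total counts). Hsd11b1, which regenerates active glucocorticoid, had 7.36 to 23.9 CPM (median 13.8) at day 60, against 0.238, 0 and 0.273 CPM at day 7 (6.39 ± 0.58, edgeR adjusted p = 1.49e-07). The thyroid hormone receptors went opposite ways, with Thrb at 1.78 ± 0.11 and Thra at -1.24 ± 0.08. Dio2, an activating enzyme of thyroid hormone, fell by 1.74 ± 0.19. Igf1 fell by 1.79 ± 0.08 and its receptor Igf1r by 0.91 ± 0.15. Erbb2, the co-receptor of neuregulin, had 8.56 to 13.9 CPM (median 11.4), against 42.0, 42.7 and 38.3 CPM (-1.85 ± 0.11), while Erbb3 was not called (-0.25 ± 0.12). Fgf1 and Fgf2 rose by 1.54 ± 0.08 and 1.52 ± 0.10. Of 19 cholesterol synthesis genes tested 16 fell, among them Sqle at -2.67, and Fdft1 rose by 1.24 ± 0.09.

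Of 31 cardiac transcription factors 17 fell and 10 rose (5 higher and 24 lower with total counts). Among the core factors, Nkx2-5 was not called (-0.03 ± 0.07), Gata4 fell by 0.89 ± 0.07 and Mef2c by 0.22 ± 0.07. Hey2, a repressor of the compact ventricular wall, fell by 1.59 ± 0.10 and averaged 95.3 ± 22.7 CPM at day 1, 20.7 ± 1.33 CPM at day 7 and 6.77 ± 0.879 CPM at day 60. Foxo3, a factor of fasting and atrophy, rose by 1.91 ± 0.13, Epas1 (HIF-2 alpha) by 1.12 ± 0.10, while Hif1a fell by 0.73 ± 0.06. Hand2 rose by 1.10 ± 0.11 and its paralog Hand1 had 2 counts at day 60, against 67 counts at day 7.

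Splicing regulators were mostly lower. Of 27 tested 16 fell and 7 rose (2 higher and 23 lower with total counts), with a median of -0.30 (-0.88 with total counts). Mbnl1, the gene the study altered, at chr3:60472830-60629750 on GRCm38, had 139 to 159 CPM (median 143) at day 60, against 102, 94.3 and 94.9 CPM at day 7, a rise of 0.60 ± 0.06 (edgeR adjusted p = 4.07e-07) that was 0.02 with total counts and not called (adjusted p = 0.801). Its average was 70.8 ± 7.59 CPM at day 1, 96.9 ± 4.05 CPM at day 7 and 144 ± 6.76 CPM at day 60. Mbnl2 rose in both scalings (0.93 ± 0.09 with TMM, 0.35 with total counts) and Mbnl3, the paralog of undifferentiated muscle cells, fell by 3.05 ± 0.33 to 0.113 to 0.453 CPM (median 0.159), against 2.55, 1.37 and 2.56 CPM. Ptbp1, a repressor of muscle exons, fell by 1.22 ± 0.06 and had 51.2 to 62.4 CPM (median 57.3), against 134, 133 and 137 CPM. Celf1, which opposes MBNL1 on many exons, fell by 0.56 ± 0.06 and Rbfox2 by 0.77 ± 0.06, while Rbfox1 rose by 1.12 ± 0.08. The SR proteins Srsf1, Srsf2, Srsf3 and Srsf7 fell by 0.67 ± 0.09, 0.58 ± 0.07, 0.62 ± 0.11 and 0.46 ± 0.08. Gene counts do not show which isoforms were made.

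For cytosolic ribosomal protein genes the direction depended on the scaling. With TMM 32 of 43 were not called, 7 rose and 4 fell (median 0.05), and with total counts 41 fell and 1 rose (median -0.53). With TMM and 1 library left out, 3 (without day 7 library 2) to 9 (without day 60 library 3) of the 43 rose. Between 1 and 5 fell, with 1 or 2 falls without day 60 library 1, 2 or 4 or any 1 of the day 7 libraries. The share of all counts in this list was 0.761% ± 0.0512 at day 60 and 1.10% ± 0.0413 at day 7. Rpl3l was the member that rose in both scalings, as given above. Eef1a1, the general elongation factor, had the largest fall of any called gene in CPM, with 817 to 959 CPM (median 855) at day 60, against 2888, 2832 and 2911 CPM at day 7 (-1.71 ± 0.06), and its groups did not overlap.

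Genes of the extracellular matrix mostly fell. Of 33 collagen and crosslinking genes 26 fell and 6 rose (4 higher and 28 lower with total counts; TMM median -1.79), and the list's share of counts was 0.267% ± 0.0341 at day 60 and 1.70% ± 0.0847 at day 7 (exact permutation p = 0.00833). Col3a1 and Col1a1, chains of the fibrillar collagens, had 149 to 269.6 CPM (median 185) and 123 to 246 CPM (median 181) at day 60, against 1934, 2350.0 and 2282 CPM and 1645, 1923 and 1826 CPM at day 7 (-3.45 ± 0.15 and -3.26 ± 0.17). Col26a1 fell by 5.57 ± 0.19, Lox, a crosslinking oxidase, fell by 2.37 ± 0.17, and the basement membrane chains Col4a1 and Col4a2 fell by 2.05 ± 0.06 and 1.79 ± 0.07. Col8a1 (1.98 ± 0.11) rose, and so did Col4a3 and Col4a4 and the prolyl hydroxylase subunits P4ha1 and P4ha2.

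Of 33 matricellular and elastic fibre genes 21 fell and 8 rose (4 higher and 25 lower with total counts), with a median of -0.93. Eln (elastin) had 50.3 to 82.4 CPM (median 68.2) at day 60, against 948, 1303 and 1541 CPM at day 7 (-4.22 ± 0.14, edgeR adjusted p = 8.17e-12), and Fbn2, the fetal fibrillin, fell by 6.65 ± 0.14 while Fbn1 fell by 2.75 ± 0.09. Postn (periostin) and Tnc (tenascin C), matrix proteins of growing or injured tissue, fell by 3.96 ± 0.10 and 4.25 ± 0.20, and Fn1 (fibronectin) by 3.01 ± 0.11. Eln and Col3a1 were higher at day 7 than at either other age: Eln averaged 542 ± 251 CPM at day 1, 1264 ± 298 CPM at day 7 and 66.9 ± 11.4 CPM at day 60 and Col3a1 1029.6 ± 179.9 CPM at day 1, 2189 ± 223 CPM at day 7 and 197 ± 45.6 CPM at day 60. Against this, Ccn2, a matricellular protein, rose by 2.40 ± 0.21, and Dcn (decorin) by 0.60 ± 0.13, which had no call with total counts. Of 26 basement membrane and integrin genes 11 rose and 14 fell (4 higher and 17 lower with total counts). Laminins split, with Lamb1, Lama4 and Lamc1 lower by 1.74 ± 0.07, 1.81 ± 0.09 and 1.42 ± 0.06 and Lama5 (0.89 ± 0.14) and Lamb2 (0.49 ± 0.07) higher under TMM. Of 16 fibroblast markers 5 rose and 8 fell (4 higher and 10 lower with total counts; TMM median -0.18), with summed levels of 2897 to 4053 CPM in day 60 ventricles and 4718 to 5463 CPM in day 7 ventricles, 2 of them being the collagens above. Pdgfra, a defining fibroblast receptor, fell by 0.22 ± 0.09, with 44.5 ± 4.95 CPM at day 60 and 52.5 ± 2.74 CPM at day 7, and Tcf21, the fibroblast transcription factor, fell by 1.52 ± 0.10. Ddr2 was not called. Gsn (gelsolin) rose by 3.19 ± 0.12. The part of fibroblast number in the matrix fall was not tested.

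Interferon and antigen presentation genes had the highest median of all lists, 2.14 (1.56 with total counts). All 32 rose, and 28 rose with total counts with none lower; leaving out 1 library at a time left 30 to 32. The MHC class II genes stood out: H2-Aa had 38.8 to 89.7 CPM (median 61.9) at day 60, against 1.43, 1.04 and 1.09 CPM at day 7 (5.73 ± 0.28, edgeR adjusted p = 2.48e-10), and Cd74, the invariant chain, 116 to 234 CPM (median 173), against 4.66, 4.78 and 5.69 CPM (5.14 ± 0.22). No values overlapped. Class I was also higher, with H2-K1 at 2.40, H2-D1 at 2.38 and B2m, the light chain, at 2.04. The complement genes C3 and C4b rose by 5.13 ± 0.36 and 4.81 ± 0.21. Among interferon-stimulated genes Ifit3 and Ifit1 rose by 4.43 ± 0.29 and 4.28 ± 0.32 and Irf7, which amplifies interferon signals, by 3.02 ± 0.25. Reads of MHC genes can be shared between near-identical copies.

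Macrophage markers were higher in the same libraries. Of 19, 18 rose and 1 fell (16 higher and 1 lower with total counts; TMM median 1.60), with summed levels of 446 to 685 CPM in day 60 ventricles and 137 to 169 CPM in day 7 ventricles. Cd163, a scavenger receptor of resident macrophages, had 20.3 to 48.3 CPM (median 34.9) at day 60, against 1.23, 1.27 and 1.06 CPM at day 7 (4.88 ± 0.26). Timd4 and Folr2, of self-renewing resident macrophages, rose by 3.95 ± 0.33 and 3.42 ± 0.36, and Lyz2 (lysozyme) rose by 2.81 ± 0.18. Another gene lies opposite 63.1% of the exonic bases of Folr2, so its value is uncertain. Csf1r, the defining growth factor receptor, rose by 1.49 ± 0.10 and the 3 C1q genes by 2.34 to 2.49. Cx3cr1, the fractalkine receptor, went the other way, with 0.576 to 1.33 CPM (median 0.747), against 11.0, 11.1 and 13.1 CPM (-3.69 ± 0.18). Lymphoid and granulocyte markers summed to 15.3 to 23.3 CPM in day 60 ventricles and 38.1 to 41.1 CPM in day 7 ventricles. Of this list only 9 genes passed the filter on low counts. Igkc, the immunoglobulin kappa chain, rose by 2.35 ± 0.33 and Kit, on mast cells and progenitors, fell by 3.28 ± 0.25. The T cell genes Cd3e, Cd3d and Cd8a did not pass it, with 0.0861 ± 0.0513 CPM at day 60 and 0.146 ± 0.134 CPM at day 7 for Cd3e. How far cell numbers account for the interferon and MHC rise was not tested.

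Interferon-stimulated promoters are shown for the same reason as those of the mitosis genes. Windows were matched for 24 of the 32 genes, and 11 of them (45.8%) held the response element searched as GAAANNGAAA on both strands, against 2.97% of tested genes and 3.49% of all windows. Printed are Ifit1 at chr19:34640639-34640938 (plus strand), Ifit3 at chr19:34583279-34583578 (plus strand) and Isg15 at chr4:156200769-156201068 (minus strand), with the matches or their reverse complement in capitals. In Isg15 the 3 matches form 1 run, in which neighbouring matches overlap.
Ifit1: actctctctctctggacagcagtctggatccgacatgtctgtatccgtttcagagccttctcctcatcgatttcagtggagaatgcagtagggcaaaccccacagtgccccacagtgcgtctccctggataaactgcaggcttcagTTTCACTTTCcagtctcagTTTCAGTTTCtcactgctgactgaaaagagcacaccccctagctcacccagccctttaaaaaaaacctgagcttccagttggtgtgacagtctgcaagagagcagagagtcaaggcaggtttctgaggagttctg
Ifit3: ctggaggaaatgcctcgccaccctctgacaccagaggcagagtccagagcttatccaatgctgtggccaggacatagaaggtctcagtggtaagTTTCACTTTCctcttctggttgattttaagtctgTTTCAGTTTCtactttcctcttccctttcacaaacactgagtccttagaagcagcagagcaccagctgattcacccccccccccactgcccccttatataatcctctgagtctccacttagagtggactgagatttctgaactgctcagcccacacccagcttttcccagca
Isg15: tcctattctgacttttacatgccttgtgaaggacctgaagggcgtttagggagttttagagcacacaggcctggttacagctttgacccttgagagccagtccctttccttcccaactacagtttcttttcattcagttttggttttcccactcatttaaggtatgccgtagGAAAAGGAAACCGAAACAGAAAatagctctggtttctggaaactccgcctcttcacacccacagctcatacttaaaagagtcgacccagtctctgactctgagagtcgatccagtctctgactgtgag
Isg15, a ubiquitin-like modifier, was at 2.02 to 5.89 CPM (median 4.75) at day 60, against 0.715, 0.435 and 0.579 CPM at day 7 (2.87 ± 0.33).

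Other cell types moved less uniformly. Endothelial markers split evenly, 9 higher and 9 lower of 22 (7 higher and 15 lower with total counts), with summed levels of 2886 to 3416 CPM in day 60 ventricles and 2684 to 2727 CPM in day 7 ventricles. Pecam1 was not called, Cldn5 (claudin 5) fell by 2.45 ± 0.15 and Aqp1 (aquaporin 1) and Lyve1 rose by 1.92 ± 0.12 and 3.44 ± 0.21. Mural markers had 6 higher and 5 lower of 14 (1 higher and 11 lower with total counts). Of 10 epicardial markers tested 9 fell and 1 rose (0 higher and 9 lower with total counts), with a median of -2.01. The list summed to 15.8 to 26.4 CPM in day 60 ventricles and 85.5 to 101 CPM in day 7 ventricles. Aldh1a2, which makes retinoic acid, fell by 3.43 ± 0.13. Adipocyte markers had 6 of 9 higher and none lower (5 higher and 2 lower with total counts), but the defining hormone Adipoq had only 0.113 to 2.55 CPM (median 0.807) at day 60, against 0, 0.368 and 0 CPM at day 7. Globins took 0.102% ± 0.0400 of counts at day 60 and 0.176% ± 0.0231 at day 7 (exact permutation p = 0.0333, adjusted p = 0.0400), and 2 of 9 erythroid markers fell (0 higher and 9 lower with total counts). With 1 library left out 1 to 3 erythroid markers fell, the fewest without day 60 library 1, 5 or 6 or day 7 library 1 or 2 and the most without day 60 library 3. Glial and neuronal markers had 4 of 9 higher and 0 lower (3 higher and 3 lower with total counts), with summed levels of 23.6 to 37.6 CPM in day 60 ventricles and 20.7 to 23.1 CPM in day 7 ventricles. Of 12 markers of skeletal muscle, bone and lung 4 were tested, and 2 rose and 0 fell (2 higher and 2 lower with total counts). The list summed to 1663 to 2025 CPM in day 60 ventricles and 1011 to 1109 CPM in day 7 ventricles. The lung gene Sftpc had 0 CPM at both ages. The skeletal myosin Myh4 had 1 count over the 7 day 60 libraries and 0 over the 3 day 7 libraries. Among atrial markers 3 of 9 rose and 4 fell (2 higher and 4 lower with total counts), and the summed level was 724 to 1139 CPM in day 60 ventricles and 313 to 781 CPM in day 7 ventricles, with Clu (clusterin, 2.61 ± 0.15) making up most of the sum at day 60.

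**Figure D5:**
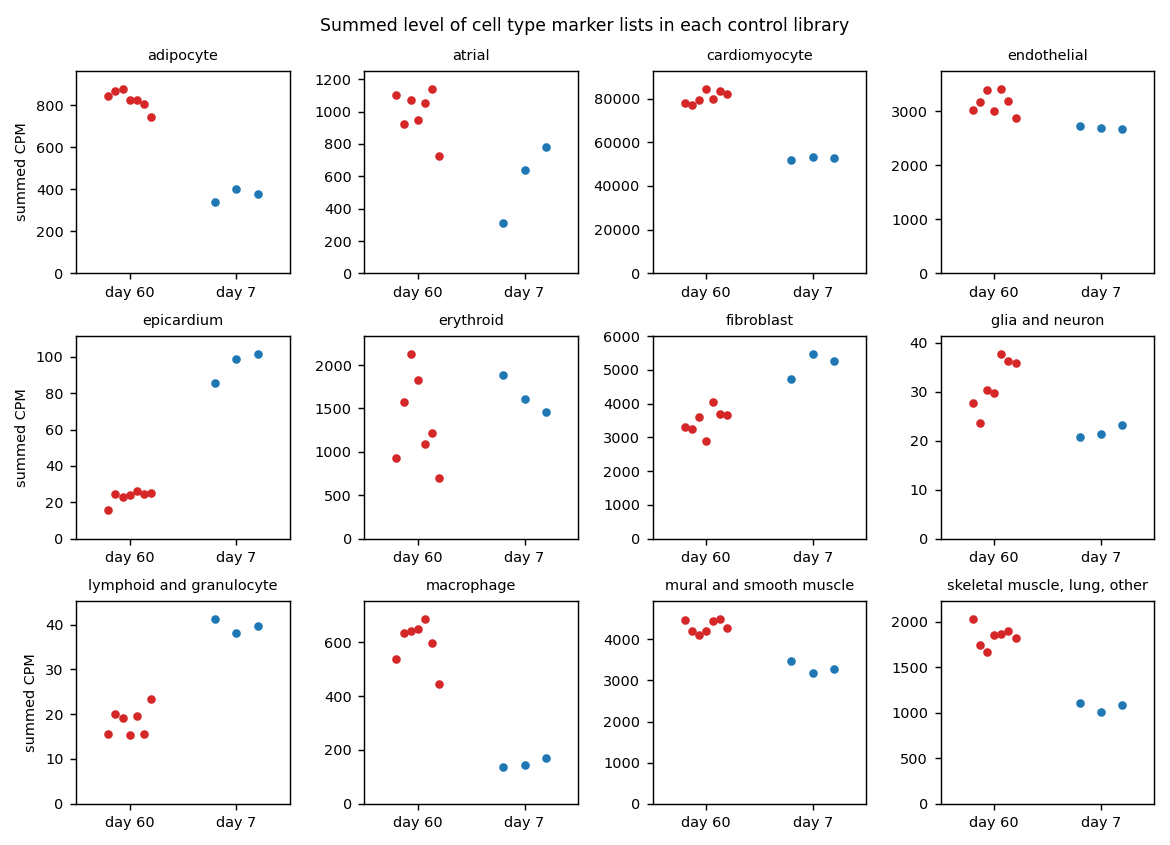
Summed CPM (vertical axis, from 0) of 12 cell type marker lists in each control library of day 60 and day 7. Macrophage sums of 446 to 685 CPM at day 60 stand above 137 to 169 CPM at day 7, epicardial sums are lower at day 60, and atrial sums at day 7 range from 313 to 781 CPM between libraries.

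Genes that respond to handling and time of day also differed. Of 20 immediate early genes tested 12 rose and 4 fell (7 higher and 7 lower with total counts). Nr4a3, an orphan nuclear receptor induced rapidly by many stimuli, had 9.11 to 60.3 CPM (median 34.9) at day 60, against 3.23, 3.28 and 5.76 CPM at day 7 (3.01 ± 0.52), and Zfp36, which degrades inflammatory mRNAs, rose by 2.14 ± 0.13. Of 19 clock and clock output genes 12 rose and 2 fell (9 higher and 4 lower with total counts); 1 fell without day 7 library 1 and 3 without day 60 library 5 or 6. The evening-phase genes Per1, Per2, Dbp and Ciart rose by 2.29 ± 0.15, 2.07 ± 0.18, 1.91 ± 0.35 and 2.38 ± 0.22, and Npas2, of the opposite phase, fell by 2.20 ± 0.12. Arntl, the central activator, spread at day 60 over 1.13 to 11.1 CPM (median 2.71), against 8.10, 10.3 and 7.87 CPM at day 7, and was not called with TMM. Collection times were not given, so age and time of day cannot be told apart for these genes. Of 28 heat shock and reticulum stress genes 12 rose and 7 fell (7 higher and 15 lower with total counts). The rises were led by small heat shock proteins of muscle, Hspb8 (2.37 ± 0.10), Hspb6 (1.87 ± 0.09) and Cryab (1.76 ± 0.07). Pdia4 and Asns, targets of reticulum and amino acid stress, fell by 0.93 ± 0.06 and 1.01 ± 0.18.

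The largest rises were partly immune and partly metabolic. They were picked among genes of at least 5 CPM without overlap between the ages that kept their call in both scalings. Igha, the heavy chain constant region of immunoglobulin A, had 4.29 to 8.74 CPM (median 7.27) at day 60 and 0 counts over the 3 day 7 libraries, so it was at least 193-fold higher. Cxcl14, a chemokine, had 3095 counts at day 60 and 2 at day 7, a ratio, scaled by library size as those that follow, of 1076 (exact 95% interval 298 to 8891, for counting error only). Inmt, an indolethylamine methyltransferase, had 1580 counts at day 60 and 3 at day 7, a ratio of 366 (125 to 1778). Acsm5, an acyl-CoA synthetase of mitochondria, had 837 counts and 1 count, a ratio of 582 (104 to 23019.6). Hrasls, a phospholipid-modifying enzyme, had 23.1 to 32.8 CPM (median 27.8), against 0.0340, 0.100 and 0 CPM, a count ratio of 606 (237 to 2226), and Ces1d, a lipase of the carboxylesterase family, 121 to 185 CPM (median 156), against 0.681, 1.24 and 1.02 CPM (7.32 ± 0.20). Ifi205, an interferon-inducible gene, had 2053 counts and 5 counts, a ratio of 286 (122 to 880). Cfd, the adipocyte protease adipsin, had 699 counts and 3 counts, a ratio of 162 (55.2 to 788). The pseudogene 5830417I10Rik, with 46.8% of its exonic bases opposite a neighbour, and the lincRNA Gm35330, with 701 counts and 4 counts, completed the 12 with Kcnv2 and Bdh1.

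The 12 largest falls were led by Tnni1 and included genes of embryonic growth and matrix. Cpa1, a carboxypeptidase, had 0 to 0.106 CPM (median 0) at day 60, against 10.7, 11.7 and 10.4 CPM at day 7, so the count ratio of day 60 over day 7 was 0.00287 (exact 95% interval 0.00078 to 0.00737). Sox11, a transcription factor of embryonic progenitors, had 3 counts at day 60 and 653 at day 7, a ratio of day 60 over day 7 of 0.0032 (0.000657 to 0.00938). Vash2, a tubulin carboxypeptidase, fell by 6.94 ± 0.20, Nrk, a kinase of embryonic tissues, by 5.80 ± 0.19, Capn6, a calpain without protease activity, by 5.59 ± 0.24 and Cthrc1, a secreted collagen triple helix protein, by 5.69 ± 0.14. Dlk1, Mest, Fbn2 and Col26a1 were given above, and Gm3608 is a pseudogene (-6.13 ± 0.19). The rule that picked these 12 genes required that no day 60 library reach a day 7 value, so this is no added support.

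The 2 control sets of day 60 were close to each other. With the 3 libraries of 14 days set against the 4 of 7 days, 3 of 14481 genes were called (0.0207%) by edgeR, 105 by DESeq2, and 1271 (8.78%) had an unadjusted p under 0.05. The 3 genes, named after their values were seen, were Gm3375, which had 6.38, 7.03 and 5.68 CPM in the 14-day set, against 0.212 to 0.508 CPM in the 7-day set, 2210407C18Rik (-1.42 ± 0.18) and AC115117.1, with a median of 2.56 CPM in the 14-day set, against 0 counts in the 7-day set. With library 7 left out, 102 genes were called between the sets. Library 7 was the only 14-day library near 0 for the Y-linked gene Ddx3y, at 0.0511 CPM against 62.4 and 59.1 CPM. The 7-day set had 52.9, 0, 0.106 and 58.3 CPM. Without library 7 the sets thus differ in sex, whose part in these calls was not tested. Against day 7, the 7-day set alone gave 11203 calls and the 14-day set alone 10733, beside 11466 with both.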

How the data were processed

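Gene expression was measured by RNA sequencing of ventricle. The authors deposited raw counts per gene for all 27 libraries, whole numbers over 55487 genes, per the file headers. The submitters' processing notes name STAR, featureCounts, Salmon, DESeq2 and the builds GRCm38 and mm10, without roles or versions, and no strand setting was given in the sources used here. Symbols, exon overlaps and coordinates come from GENCODE M21 on GRCm38, which matched 55227 gene IDs and left 260 unmatched. No column lacked a sample. Depth was 21929347 to 24817135 counts in the 10 libraries.

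The 7 day 60 and 3 day 7 control libraries were tested with edgeR 4.0.16 (R 4.3.3) on the deposited counts: filterByExpr, TMM, a quasi-likelihood fit with age alone, and Benjamini-Hochberg adjustment over 15523 genes, with a threshold of 0.05. CPM are TMM-scaled over the 14 control libraries of all ages. Total count scaling, DESeq2 1.42.0, limma 3.58.1 (voom), other filters and left-out libraries were alternatives, and the fit was tested on simulated data. Gene ratios and count shares were compared by exact two-sided permutation tests over libraries. Named genes were the 12 largest rises and falls of at least 5 CPM without overlap and with the same call in both scalings, the 8 largest changes in CPM each way, up to 4 called members of each list with the largest change and at least 10 CPM, both members of each pair, and a fixed set of well-known genes. Other members are named for their known roles, chosen after their values were seen. Some genes that this rule names are not reported here. The libraries and gene lists were chosen with earlier results of these data known, so they are no independent support. Promoter windows are RefSeq's, 1 per gene. Intervals on count ratios are exact and cover counting error only.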

Additional observations from a re-analysis of the deposited data

Results flagged for a closer look

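Within the 7 day 60 libraries, 12 of 260 items tested, gene levels and ratios among them, had 1 library set apart from the other 6 by Dixon's gap test. Chance alone marks about 1 in 20 independent groups. These items share libraries and in part genes, so the total of 12 cannot be weighed against that rate. Library 7 gave 7 of the 12, and it is also the day 60 library nearest to day 7 on the first principal component. It had 1.48 CPM of Tnni1 (others 0.287 to 0.509), 12.6 CPM of Mest (others 5.87 to 8.64), 372 CPM of Acta2 (others 180.3 to 251), 5.98 CPM of Kit (others 1.59 to 3.10) and 443 CPM of Clu (others 645 to 785). Its log2 ratios were 11.5 for Tnni3 over Tnni1 (others 12.8 to 13.7), which rests on the same Tnni1 counts, and 0.926 for Ldhb over Ldha (others 1.14 to 1.25). Each of these 7 values lay on the day 7 side of the other 6, and without library 7 the count of genes called between ages was 11490, against 11466 with it.

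Library 5 had 15.3 CPM of Igf1 (others 11.3 to 12.8), 115 CPM of Nr4a1 (others 34.7 to 57.0) and 159 CPM of Mbnl1 (others 139 to 146). Library 1 had 796 CPM of mt-Co3 (others 63.7 to 137), a gene with near-identical nuclear copies, and 15.0 CPM of H19 (others 23.8 to 30.3).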

How the results depend on the processing

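Between the ages, total count scaling gave 2521 genes higher and 10386 lower, 1121 at least 2-fold higher and 5024 at least 2-fold lower. It turned the list medians of calcium cycling (-0.44), intercalated disc (-0.56), cytosolic ribosome (-0.53), heat shock (-0.44) and skeletal muscle, bone and lung markers (-0.18), and the genes Rps15 (-0.22), Rplp2 (-0.33), Fabp4 (-0.30), Myh7 (-0.035), Nppa (-0.53), Actc1 (-0.26), Myl3 (-0.042), Myl2 (-0.0024), Cox7a2 (-0.15), Ldha (-0.29), Pgam1 (-0.43), Cacna1c (-0.44) and Utrn (-0.50). These turns follow from the shift of -0.58 that this scaling adds to all genes.

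Medians close to 0, and that of the atrial markers, turned under other settings, and the cause was not tested. For cytosolic ribosome genes this was -0.031 with the 7-day set alone and -0.027 with the replicate block, and for the intercalated disc it was -0.0034 with no low-count filter. Endothelial markers, at -0.02, became 0.0068 with DESeq2, 0.0065 with all 14 controls fitted, 0.0118 with all 27 libraries fitted, 0.0017 with at least 1 CPM in 3 libraries, 0.0083 with median-ratio size factors, 0.0146 with mitochondrial genes left out, 0.0129 with the 14-day set alone and 0.0181 with the replicate block, and ran between -0.057 and 0.036 with 1 library left out. Atrial markers, at -0.55 and so not close to 0, became 0.0041 with the block. Among genes, Nppa became -0.017 with the 7-day set and ran from -0.30 to 0.67 with 1 library left out, Hk1 became 0.038 with the 14-day set and the ratio of Myh6 over Myh7 -0.31. Xist follows the sex of the libraries: it became 0.34 with limma-voom, 4.30 with the block and ran from -1.19 to 6.93 with 1 library left out, the highest without day 7 library 1.

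With 1 library left out, 10701 to 11490 genes were called between the ages and 2 to 102 between the day 60 sets, where DESeq2 called 105 and the fit with no filter 306. Replicate numbers do not pair the samples: the correlations of same-numbered deviations were -0.0701, -0.0921 and -0.1000, and the replicate block gave 11146 calls. Without a change of direction, 14 of the 231 named genes lost their call and 5 gained one under at least 1 alternative. Depth limits genes under about 0.2 CPM, where 3 counts or fewer stand behind a value.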

Other observations

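Among 13587 protein-coding genes tested, 5033 were higher and 5293 lower at day 60 with TMM, and 2212 higher and 9302 lower with total counts. Of 404 lincRNA genes 137 were higher and 131 lower with TMM, and 99 higher and 221 lower with total counts. Of 410 antisense genes 94 were higher and 158 lower, and 57 higher and 254 lower with total counts. Of 349 processed pseudogenes, which share sequence with their parent genes, 107 were higher and 55 lower with TMM, a split that turned to 44 higher and 127 lower with total counts.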
